A study of Mus musculus with 26 samples.

Results

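The 10 genes described here, out of 55341 listed in each count file, make up most of the insulin-like growth factor (IGF) system. They were chosen by name. They comprise the ligands Igf1 and Igf2, the non-coding RNA H19 beside Igf2, the receptors Igf1r and Igf2r, and the binding proteins Igfbp2, Igfbp3, Igfbp4, Igfbp5 and Igfbp6. Each gene was found in the files once by its Ensembl identifier, paired with a symbol by GENCODE. The libraries were made from C2C12, a mouse myoblast line that withdraws from the cell cycle and fuses into myotubes when serum is reduced. In the knockdown, 18 libraries came from C2C12 cells transfected before and again at induction with siCtrl, siSMYD3#1 or siSMYD3#2, collected at 0 h (confluent cells at induction) or 24 h of differentiation, with 3 libraries per condition. In the overexpression, 8 libraries came from cells carrying the empty pREV retroviral vector or pREV-SMYD3 CL5, at the same times, with 2 libraries per condition. CL5 is a single clone that expresses HA-Flag-tagged SMYD3, a lysine methyltransferase, and the vector control was sub-cloned as well, so clone and transgene cannot be told apart in this comparison. RNA of siRNA replicates 1 and 2 was extracted with NucleoSpin at passage 14, that of siRNA replicate 3 with TRIzol at passage 11, and that of all vector and CL5 libraries with TRIzol.

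IGF1 and IGF2 signal through the type 1 receptor encoded by Igf1r to the PI3K and AKT kinases, and in muscle cells they drive both proliferation and differentiation. The product of Igf2r, the cation-independent mannose 6-phosphate receptor, takes up IGF2 for degradation. The binding proteins hold the ligands outside the cell and either restrict or prolong their action, and IGFBP5 is the form best known from differentiating myoblasts. H19 and Igf2 are reciprocally imprinted neighbours that share enhancers, and H19 is the host gene of a microRNA.

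Libraries held between 14315193 and 67853386 counts (median 27016751). Levels are given as CPM (counts scaled to a common library size) after TMM scaling, an edgeR method that corrects for differences in library composition. A gene is called changed when edgeR's quasi-likelihood test gives an adjusted p under 0.01, corrected across the genes of the fit by the Benjamini-Hochberg method. Smyd3 itself lay at 17.8 to 21.6 CPM in the 6 siCtrl libraries, at 15.1 to 19.3 in siSMYD3#1 libraries and at 5.37 to 9.65 in siSMYD3#2 libraries. At 24 h the log2 difference of Smyd3 from siCtrl was -1.51 for siSMYD3#2 (SE 0.17, adjusted p 5.06e-05) and -0.24 for siSMYD3#1 (SE 0.16, adjusted p 0.41), so RNA reduction by siSMYD3#1 did not pass the test. The study also probed SMYD3 protein by western blot and Smyd3 RNA by qPCR in siSMYD3 cells. The counts used here do not measure the protein. In CL5 Smyd3 RNA lay at 16.9 to 27.1 CPM and in vector cells at 16.7 to 19.2 CPM, without a call, and how far reads of the transgene enter this gene is not known. All 5 myoblast markers (Myod1, Myf5, Des, Cdh15, Pax7) were detected in every library. Markers of fibroblasts, adipocytes, endothelial cells and leukocytes varied. Cfd and Adgre1 had 0 counts throughout, Thy1 had at most 2, Adipoq 3, Plin1 and Ptprc 6, and Pecam1 9. Higher maxima were those of Cdh5 (18 counts), Lum (20), Tek (43), Csf1r (46), Kdr (57) and Fabp4 (64). The leukocyte marker Cd68 was detected in every library, at 1.57 to 6.57 CPM. The summed level of the 4 fibroblast markers, carried by Dcn and Pdgfra, ranged from 3.87 to 117 CPM.

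The members lie on 6 chromosomes of GRCm38. Igfbp2 (chr1:72824503-72852474, plus strand) and Igfbp5 (chr1:72857932-72874884, minus strand) stand tail to tail with 5457 bases between them. H19 (chr7:142575529-142578143) and Igf2 (chr7:142650766-142666816) are both on the minus strand, 72622 bases apart. Igf1r (chr7:67952827-68233668) is on the same chromosome, Igf1 is at chr10:87858265-87937042, Igfbp3 at chr11:7206086-7213923, Igfbp4 at chr11:99041244-99054392, Igfbp6 at chr15:102144362-102149511 and Igf2r at chr17:12682406-12769664. The merged exons of these 10 genes run from 1112 bases (Igfbp6) to 16791 bases (Igf1r). Igf2 shares 3596 of its 5723 exon bases, on the same strand, with Gm49394, an overlapping annotated gene. In the coding transcript with the largest overlap, 97.0% of bases are shared in this way. Gm49394 had at most 2 counts in any library. Reads on bases that belong to more than 1 gene are assigned or dropped according to a counting option that is not given in the sources used here, so the Igf2 values below are uncertain in level and may be too low. H19 shares 84 bases with Mir675, which had 0 counts throughout, and the remaining 8 members share none.

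The promoters of Igfbp3, Igfbp4 and Igfbp5 are shown. Of the members tested, Igfbp5 and Igfbp3 rose most over time in siCtrl cells. Igfbp3 and Igfbp4 were the members that differed between siSMYD3#1 and siCtrl at 24 h, as described below. RefSeq start sites on GRCm38.p6 were matched for 9 of the 10 members, H19 being the one without an entry. The 250 bases before the start are given 5′ to 3′ on the strand of the gene, at chr11:7213924-7214173 (minus) for Igfbp3, chr11:99040994-99041243 (plus) for Igfbp4 and chr1:72874866-72875115 (minus) for Igfbp5. Capitals mark matches on either strand to CCCTCC or GAGGGG, the motifs the study names for SMYD3, to CAGCTG, a form of the E-box bound by MyoD-family factors, and to TATAAA.
Igfbp3: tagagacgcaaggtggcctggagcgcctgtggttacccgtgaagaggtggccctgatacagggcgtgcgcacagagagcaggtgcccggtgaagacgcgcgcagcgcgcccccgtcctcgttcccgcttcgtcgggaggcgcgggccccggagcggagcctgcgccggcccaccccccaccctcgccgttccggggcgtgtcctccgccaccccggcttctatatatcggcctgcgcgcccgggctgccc
Igfbp4: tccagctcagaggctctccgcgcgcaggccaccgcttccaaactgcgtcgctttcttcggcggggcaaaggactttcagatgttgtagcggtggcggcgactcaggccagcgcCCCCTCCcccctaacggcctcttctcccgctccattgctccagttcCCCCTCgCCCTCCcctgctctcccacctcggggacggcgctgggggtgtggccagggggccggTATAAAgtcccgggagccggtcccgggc
Igfbp5: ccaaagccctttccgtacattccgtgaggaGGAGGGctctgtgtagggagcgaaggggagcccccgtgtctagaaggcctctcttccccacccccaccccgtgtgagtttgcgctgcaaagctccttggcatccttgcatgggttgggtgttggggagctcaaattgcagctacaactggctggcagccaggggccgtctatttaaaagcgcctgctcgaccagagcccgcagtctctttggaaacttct
The Igfbp3 window held no match. The Igfbp4 window held 2 matches each to CCCTCC and GAGGGG, in part overlapping, and a TATAAA 28 bases before the start. The Igfbp5 window held 1 match to CCCTCC. Among 32851 RefSeq windows of the same length, 35.2% held CCCTCC, 29.6% GAGGGG, 13.0% CAGCTG and 12.4% TATAAA, and among the 13 windows of the 9 members 8, 6, 1 and 2 did. Such matches describe letters in these windows and do not mark binding sites.

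Per kilobase of exon, Igfbp2, Igfbp5, Igfbp6 and H19 were the most abundant members in every condition, and the ligands stood among the lowest. In siCtrl cells at 0 h the mean level was 624 CPM per kb for Igfbp2, 133 for Igfbp6, 124 for H19 and 69.1 for Igfbp5. Below them came Igf2r at 10.3 CPM per kb, Igf1r at 2.95, Igfbp4 at 2.04, Igfbp3 at 1.17, Igf1 at 0.053 and Igf2 at 0.0083, and the ranges of neighbours in this order overlapped as far down as Igfbp5 and Igf2r and not below. At 24 h in siCtrl cells Igfbp5 (601 CPM per kb, range 300.5 to 767) overlapped Igfbp2 (707, range 85.8 to 1070) and H19 (420, range 229 to 562), and Igfbp3 had passed Igf1r, at 11.9 against 3.93 CPM per kb. The order of these neighbours was not tested.

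The make-up of the 5 binding protein RNAs shifted with time and differed between the extraction batches. In the 6 NucleoSpin libraries at 0 h, Igfbp2 held 79.5 to 81.3% of the summed per-kilobase level and Igfbp5 7.96 to 10.6%. At 24 h in the same batch Igfbp2 held 40.2 to 57.6% and Igfbp5 35.9 to 51.0%, and the summed level was 1065 to 1373 CPM per kb at 0 h and 1344 to 2155 at 24 h, with overlapping ranges. In the 3 TRIzol siRNA libraries at 0 h it was Igfbp6 that held most, 66.5 to 73.3%, and Igfbp2 held 18.8 to 24.2% of a sum of 229 to 253 CPM per kb. In vector and CL5 cells, also extracted with TRIzol, Igfbp2 held between 34.4 and 63.2%.

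**Figure D1:**
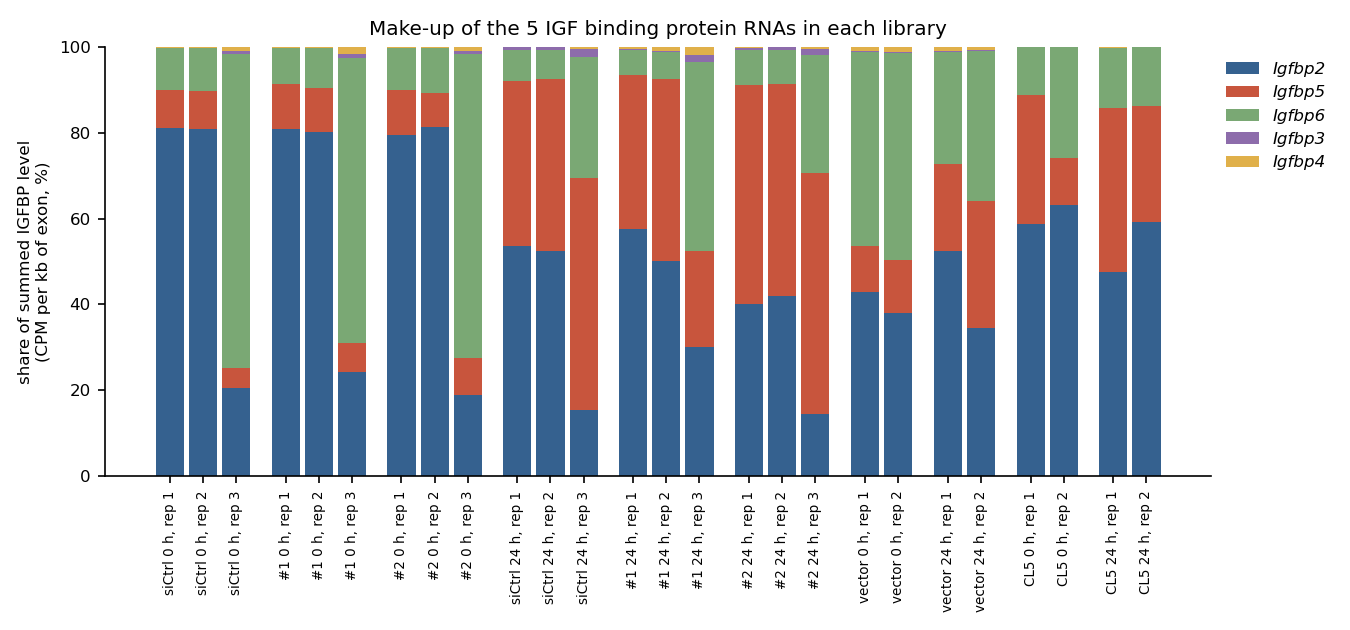
Share of each binding protein RNA in the summed level of the 5 (CPM per kb of exon, in percent, linear axis from 0) in each of the 26 libraries, labelled by condition and replicate. Igfbp2 takes 79.5 to 81.3% of the bars of NucleoSpin libraries (siRNA replicates 1 and 2) at 0 h and Igfbp6 66.5 to 73.3% of those of TRIzol libraries (siRNA replicate 3), and the Igfbp5 part is larger at 24 h.

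The first comparison asked how the members move in the first 24 h of differentiation in siCtrl cells. Of the 10 members, 6 were called raised and 0 lowered (Igf1, H19, Igf1r, Igf2r, Igfbp3 and Igfbp5). Igfbp2, Igfbp4 and Igfbp6 did not pass the test and Igf2 did not pass the filter on low counts. Among all 15820 genes tested 14.6% were raised and 29.4% were called in either direction. The median log2 change was 1.06 over the 9 members tested and 0.03 over all genes.

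Of the ligands, Igf1 lay at 0.70, 0.39 and 0.48 CPM in siCtrl replicates 1, 2 and 3 at 0 h and at 1.36, 1.96 and 2.498 CPM at 24 h. All 24 h libraries were above all 0 h libraries, on 13 to 71 counts each. The log2 change of Igf1 was 1.89 (SE 0.33, adjusted p 0.00014). Igf2 had 2, 4 and 0 counts at 0 h and 20, 15 and 2 counts at 24 h, so that the higher counts were in both NucleoSpin libraries and not in the TRIzol library. No other siRNA condition held more than 5 counts of Igf2 in a library, and no fold is given for it. Igf2os, the antisense transcript of Igf2, was singled out after its values were seen. It had 0 to 2 counts in siCtrl cells at 0 h and 12 to 34 at 24 h. At 24 h it had 1 to 3 counts in siSMYD3#1 cells and 5 to 10 in siSMYD3#2 cells. No test is given for Igf2os, which entered the fit mainly through siCtrl cells at 24 h and had at most 10 counts in any other siRNA library.

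H19 lay at 389, 462 and 62.4 CPM in replicates 1, 2 and 3 at 0 h and at 1150, 1382 and 564 CPM at 24 h. Each replicate rose, and the TRIzol library was the lowest at both times. The log2 change was 2.07 (SE 0.28, adjusted p 4.6e-05). Among its annotated chromosome 7 neighbours, 6 of the 10 listed genes (7 tested) were called raised and 0 lowered, beside 14.6% raised among all genes. They included the muscle troponin genes Tnnt3 (log2 change 5.80) and Tnni2 (4.94), and also Igf2os, with the limit given above. The mitochondrial ribosomal protein gene Mrpl23 (0.06, adjusted p 0.63) was the only tested neighbour not called, and the rest of the list was not tested.

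Of the receptors, Igf1r lay at 45.2, 46.3 and 57.0 CPM at 0 h and at 62.5, 56.0 and 79.7 CPM at 24 h. It rose by less than any other called member, with a log2 change of 0.41 (SE 0.11, adjusted p 0.0069), and the 0 h and 24 h values overlapped across batches. Leaving out siCtrl replicate 1, 2 or 3 at 0 h, or replicate 1 or 3 at 24 h, ended its call (adjusted p 0.0170 to 0.0396). Igf2r lay at 115, 123 and 49.8 CPM at 0 h and at 280, 298 and 72.3 CPM at 24 h. Its log2 change was 1.06 (SE 0.23, adjusted p 0.0017).

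Of the binding proteins, Igfbp5 lay at 555, 622 and 67.1 CPM at 0 h and at 4608, 4425 and 1805 CPM at 24 h. All 24 h libraries were above all 0 h libraries, and the log2 change was 3.59 (SE 0.41, adjusted p 1.55e-05). Igfbp3, the main carrier of IGFs in blood, lay at 3.44, 3.29 and 4.27 CPM at 0 h and at 39.4, 39.8 and 32.8 CPM at 24 h. Its replicates were close together at each time, across the batches, with a log2 change of 3.38 (SE 0.24, adjusted p 2.03e-08). Igfbp2 lay at 1597, 1769 and 90.6 CPM at 0 h and at 1977, 1781 and 158 CPM at 24 h, a log2 change of 0.36 (SE 0.22, adjusted p 0.21). Igfbp4 (0.05, SE 0.37) and Igfbp6 (0.10, SE 0.12) had adjusted p of 0.93 and 0.53. The summed level of the 5 markers of differentiating muscle (Myog, Mymk, Myh3, Ckm, Tnnt3) went from between 2.98 and 5.97 CPM to between 306 and 894 CPM in the same libraries, and that of the 4 fibroblast markers from between 3.87 and 9.44 to between 30.8 and 74.3 CPM. Their part in the rise of the IGF genes was not tested, and in RNA of whole cultures a change in the number of cells of a kind cannot be told apart from a change in RNA per cell.

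**Figure D2:**
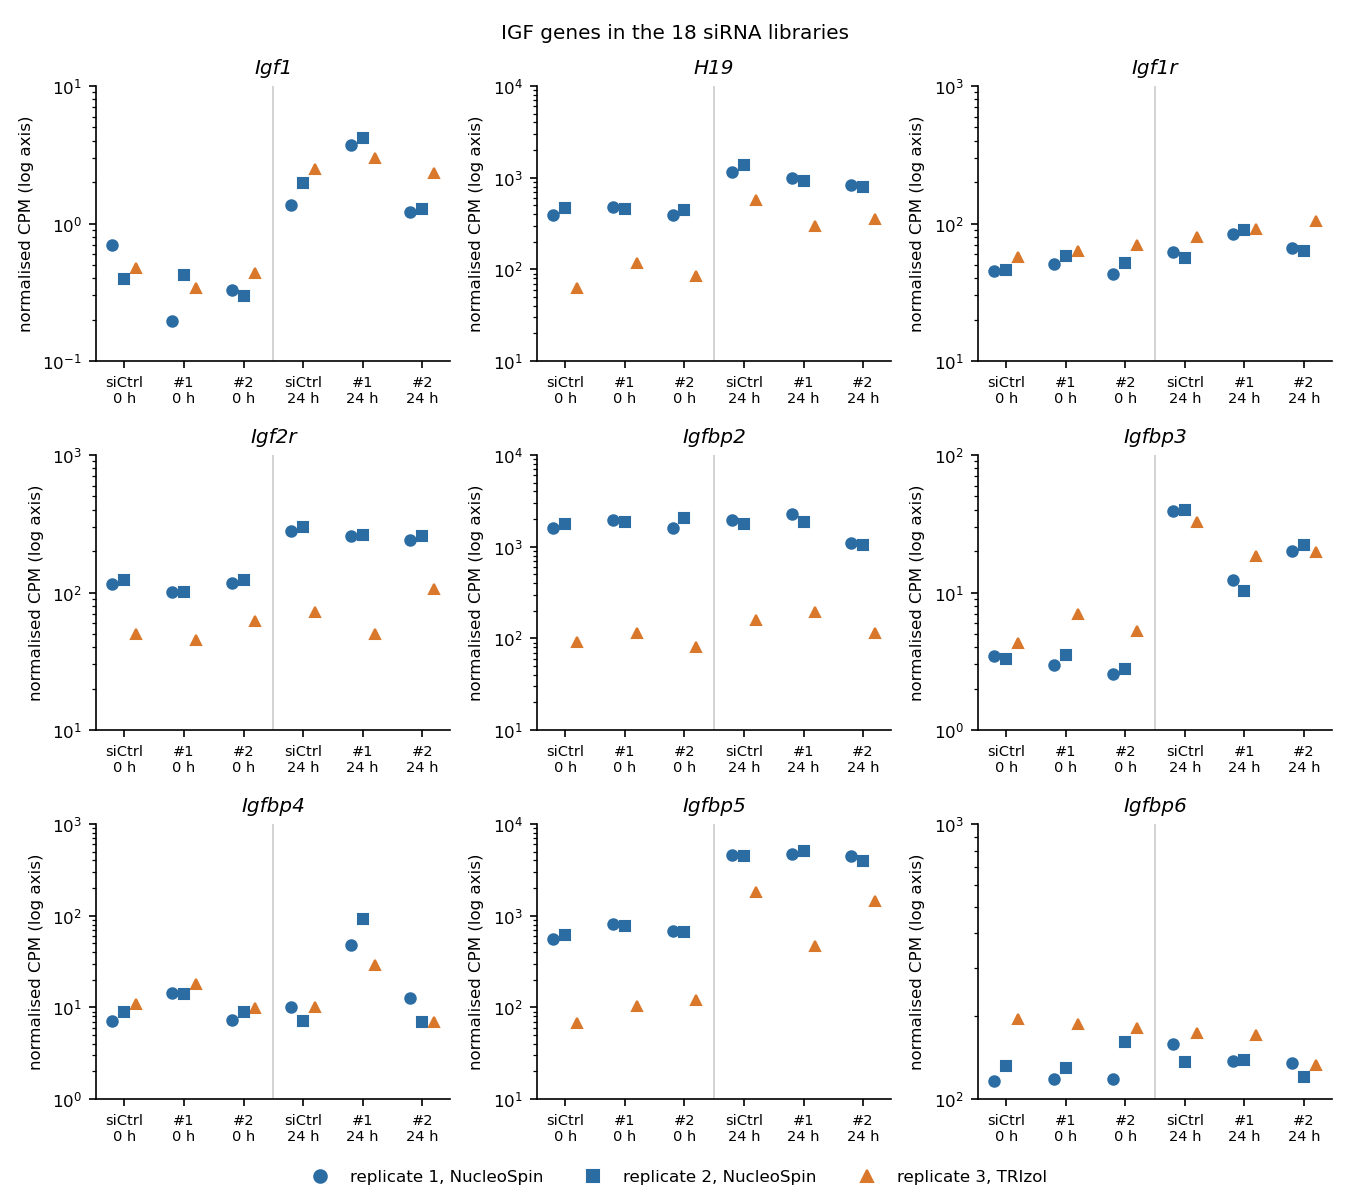
Normalised CPM (log axis, range set for each gene) of the 9 tested members in the 18 siRNA libraries, by siRNA and time. Blue circles and squares are replicates 1 and 2 (NucleoSpin, passage 14) and orange triangles replicate 3 (TRIzol, passage 11). Igfbp5 and Igfbp3 are higher at 24 h in every condition, Igfbp2 separates by batch, and Igfbp4 is highest in siSMYD3#1 cells at 24 h.

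With each siRNA against Smyd3, the 6 members raised in siCtrl cells were called raised again. In siSMYD3#1 cells, 7 of the 10 members were called raised between 0 h and 24 h, where 12.7% of all genes were raised and 25.4% were called in either direction. They were the 6 of siCtrl cells and Igfbp4. In siSMYD3#2 cells the 6 of siCtrl cells were called, where 9.11% of all genes were raised and 19% were called. The log2 change of Igf1 was 3.54 (SE 0.36) with siSMYD3#1 and 2.17 (SE 0.36) with siSMYD3#2. Some calls of H19, Igf2r and Igf1r were lost on leaving out 1 library. That of H19 was lost without any one of the 6 siSMYD3#1 libraries (adjusted p 0.0134 to 0.0255) and without siSMYD3#2 replicate 3 at either time (0.0157 and 0.0121). That of Igf2r was lost without replicate 1 or 2 at either time with siSMYD3#1 (0.0155 to 0.0176), and with siSMYD3#2 without any library but replicate 3 at 0 h (0.0106 to 0.0314). That of Igf1r with siSMYD3#2 was lost without replicate 1 at 0 h or replicate 3 at 24 h (0.0221 and 0.0313). The log2 change of Igfbp3 was 1.63 (SE 0.24) and 2.62 (SE 0.25), and that of Igfbp5 was 2.51 (SE 0.39) and 3.03 (SE 0.39). These time effects were compared with the siCtrl time effect in the interaction test, in which 0.215% of all genes were called for siSMYD3#1 and 0.0190% for siSMYD3#2, and 0 members for either. At an unadjusted p under 0.05 there were 4 and 2 of 9 members tested, and 1388 and 1585 of 15820 genes. DESeq2 called 1 and 0 members, and 137 and 90 genes. The member called by DESeq2 was Igfbp3, with an interaction of -1.75 for siSMYD3#1 (edgeR SE 0.33, adjusted p 0.0191; DESeq2 adjusted p 5.80e-05).

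The next comparison asked what each siRNA did at 24 h. With siSMYD3#1, 2 of the 10 members were called, Igfbp4 raised and Igfbp3 lowered, where 2.91% of all genes were raised, 2.94% lowered and 5.85% called in all. With siSMYD3#2, 0 members were called, where 3.70% of all genes were, while 4 of 9 members tested and 3530 of 15820 genes had an unadjusted p under 0.05, and DESeq2 called 1 member and 1024 genes. The comparisons share the siCtrl libraries. The median log2 difference over the 9 members tested was -0.07 for siSMYD3#1 and -0.26 for siSMYD3#2, and that of all genes 0.00 for each.

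Igfbp3 lay at 12.3, 10.2 and 18.6 CPM in replicates 1, 2 and 3 of siSMYD3#1 cells at 24 h and at 19.95, 22.2 and 19.6 CPM in those of siSMYD3#2 cells. Every library of both siRNAs was below every siCtrl library (32.8 to 39.8 CPM). The log2 difference was -1.49 for siSMYD3#1 (SE 0.22, adjusted p 0.00024) and -0.87 for siSMYD3#2 (SE 0.22, adjusted p 0.018). The second passed the threshold with DESeq2 (adjusted p 0.0024), when the NucleoSpin libraries were fitted alone (-0.91, adjusted p 0.0001), when only the compared groups were fitted (adjusted p 4.79e-05), and without siCtrl replicate 3 at 24 h (-1.12, adjusted p 0.0014). It did not pass on leaving out any other single library of the 24 h groups compared. Over these fits the difference came as near 0 as -0.68 and the adjusted p reached 0.0893. Between the siRNAs at 24 h, 1 of the 10 members was called, Igfbp4 raised with siSMYD3#1, where 3.36% of all genes were called and 2.05% raised. The direct difference between the siRNAs in Igfbp3 was -0.62 (SE 0.22, adjusted p 0.098). Myog, the myogenic factor that marks the start of differentiation, lay at 55.6 to 262 CPM in siCtrl cells at 24 h, at 5.64 to 19.8 CPM with siSMYD3#1 and at 31.1 to 48.6 CPM with siSMYD3#2. The summed markers of differentiating muscle were at 306 to 894 CPM in siCtrl cells, 39.3 to 80.7 CPM with siSMYD3#1 and 138 to 154 CPM with siSMYD3#2. Their part in the Igfbp3 difference was not tested.

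Igfbp4, a binding protein that restrains IGF action until it is cleaved by pappalysin 1, lay at 48.3, 92.0 and 28.7 CPM in siSMYD3#1 cells at 24 h. It lay at 10.2, 7.18 and 10.2 CPM in siCtrl cells and at 12.6, 6.92 and 6.86 CPM in siSMYD3#2 cells. The lowest siSMYD3#1 library was above the highest of the other 2 conditions, but the siSMYD3#1 libraries were also the most spread. The log2 difference of siSMYD3#1 was 2.58 from siCtrl (SE 0.37, adjusted p 0.00042) and 2.67 from siSMYD3#2 (SE 0.37, adjusted p 0.0007), and that of siSMYD3#2 from siCtrl was -0.10 (SE 0.38, adjusted p 0.92). It was thus a difference between the siRNAs against the same target. It was seen with the siRNA that left Smyd3 RNA closer to siCtrl and Myog further below it (log2 difference -3.59, against -1.81 with siSMYD3#2). The part of either in the Igfbp4 difference was not tested. When only the compared groups were fitted, the adjusted p against siCtrl was 0.0191.

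Igf1 lay at 3.70, 4.17 and 2.97 CPM with siSMYD3#1, all above siCtrl (1.36 to 2.498), and at 1.21, 1.27 and 2.31 CPM with siSMYD3#2. The log2 difference of siSMYD3#1 was 0.92 from siCtrl (SE 0.29, adjusted p 0.0503) and 1.18 from siSMYD3#2 (SE 0.30, adjusted p 0.0189). Igf1r, at 83.5, 89.3 and 90.5 CPM with siSMYD3#1, was above every siCtrl library, with a log2 difference of 0.43 (SE 0.11, adjusted p 0.0184). DESeq2 called it (adjusted p 0.0087), as did edgeR without siSMYD3#1 replicate 3 (0.55, adjusted p 0.0034). Over all edgeR fits that left out 1 library, the Igf1r difference ran from 0.35 to 0.55 and the adjusted p from 0.0034 to 0.0967. Igfbp2 lay at 1094, 1040 and 115 CPM with siSMYD3#2, each lower than siCtrl of that replicate number, with a log2 difference of -0.68 (SE 0.22, adjusted p 0.074). It passed with the NucleoSpin libraries alone (-0.82, adjusted p 0.00026). H19 differed from siCtrl by -0.62 (SE 0.27, adjusted p 0.17) with siSMYD3#1 and by -0.65 (SE 0.27, adjusted p 0.16) with siSMYD3#2. With only the groups compared both passed (-0.59, adjusted p 0.0087, and -0.64, adjusted p 0.00014), as did siSMYD3#2 with the NucleoSpin libraries alone (-0.64, adjusted p 0.00073). Within TRIzol, with 1 library per condition, the difference of H19 with siSMYD3#1 was -0.92. Igf2r and Igfbp6 had adjusted p between 0.22 and 0.97 with either siRNA.

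**Figure D3:**
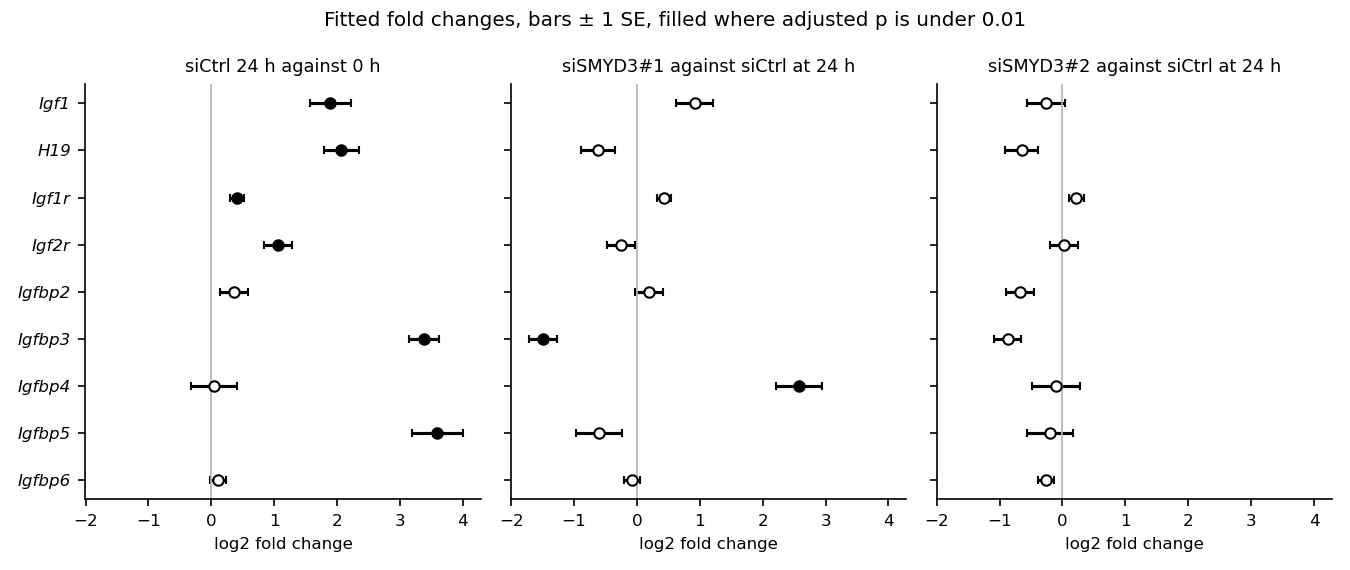
Fitted log2 fold changes of the 9 tested members, with bars of 1 SE and a common horizontal axis, for siCtrl cells at 24 h against 0 h and for each siRNA against siCtrl at 24 h. Filled points have an adjusted p under 0.01. There are 6 filled points in the first panel, 2 in the second (Igfbp3 at -1.49 and Igfbp4 at 2.58) and 0 in the third.

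At 0 h, before differentiation, 0 members were called for siSMYD3#1 against siCtrl, siSMYD3#2 against siCtrl or siSMYD3#1 against siSMYD3#2, where 1.43%, 0.531% and 1.17% of all genes were called. At an unadjusted p under 0.05 there were 1, 0 and 1 of 9 members tested, and 2196, 1596 and 2145 of 15820 genes. DESeq2 called 0 members in each, and 495, 194 and 381 genes. The member was Igfbp4, which lay at 14.2, 14.03 and 17.9 CPM with siSMYD3#1 against 7.17, 8.86 and 10.97 CPM with siCtrl. Every siSMYD3#1 library was above every siCtrl library, with a log2 difference of 0.78 (SE 0.36, adjusted p 0.35). With only the compared groups fitted the difference was 0.76 (adjusted p 0.00017).

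Extraction and passage changed together between the siRNA batches and cannot be told apart. Of the 10 members, 4 were lower in TRIzol than in NucleoSpin libraries and 2 higher, where 25.3% of all genes were lower, 26.1% higher and 51.3% called in either direction. Igfbp2 had the largest difference, with 79.6 to 194 CPM in the 6 TRIzol libraries and 1040 to 2294 CPM in the 12 NucleoSpin libraries, a log2 difference of -3.81 (SE 0.17). Igfbp5 (-2.40, SE 0.26), H19 (-1.80, SE 0.18) and Igf2r (-1.46, SE 0.15) were lower, and Igf1r (0.38, SE 0.07) and Igfbp6 (0.38, SE 0.08) were higher. Igf1, Igfbp3 and Igfbp4 were not called. The summed level of the 5 myoblast markers differed in the same way, with 217 to 256 CPM in the 3 TRIzol libraries and 1152 to 1524 CPM in the 6 NucleoSpin libraries at 0 h, and with 386 to 558 and 1373 to 1908 CPM at 24 h. Their part in the differences of the IGF genes was not tested.

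The Igfbp5 effect of siSMYD3#1 differed between these batches. At 24 h its level was 4653 and 5063 CPM in the NucleoSpin siSMYD3#1 libraries, against 4608 and 4425 CPM with siCtrl, and 472 CPM in the TRIzol siSMYD3#1 library, against 1805 CPM with siCtrl. Across all libraries the log2 difference was -0.60 (SE 0.37, adjusted p 0.37), which covers 0.11 (SE 0.09) within NucleoSpin and -1.93 (SE 0.14) within TRIzol. The difference between the batches was -2.04 (SE 0.16, adjusted p 1.66e-05), where 0.284% of all genes differed. This test was chosen after the data were seen, and the TRIzol batch has 1 library per condition, so its spread is taken from the NucleoSpin pairs. Tested in the same way, the time effects of 3 members in siCtrl cells, 1 with siSMYD3#1 and 3 with siSMYD3#2 differed between batches, where 2.79%, 2.21% and 2.12% of all genes did. For the difference between the siRNAs at 24 h it was 2 members and 0.468% of genes. The siCtrl rise of Igfbp5 from 0 h to 24 h was 2.94 (SE 0.10) within NucleoSpin and 4.75 (SE 0.16) within TRIzol. Igfbp3 was lower with siSMYD3#1 at 24 h within each batch (-1.80 and -0.82), and Igfbp4 was higher within each (2.98, and 1.49 with an adjusted p of 0.10).

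**Figure D4:**
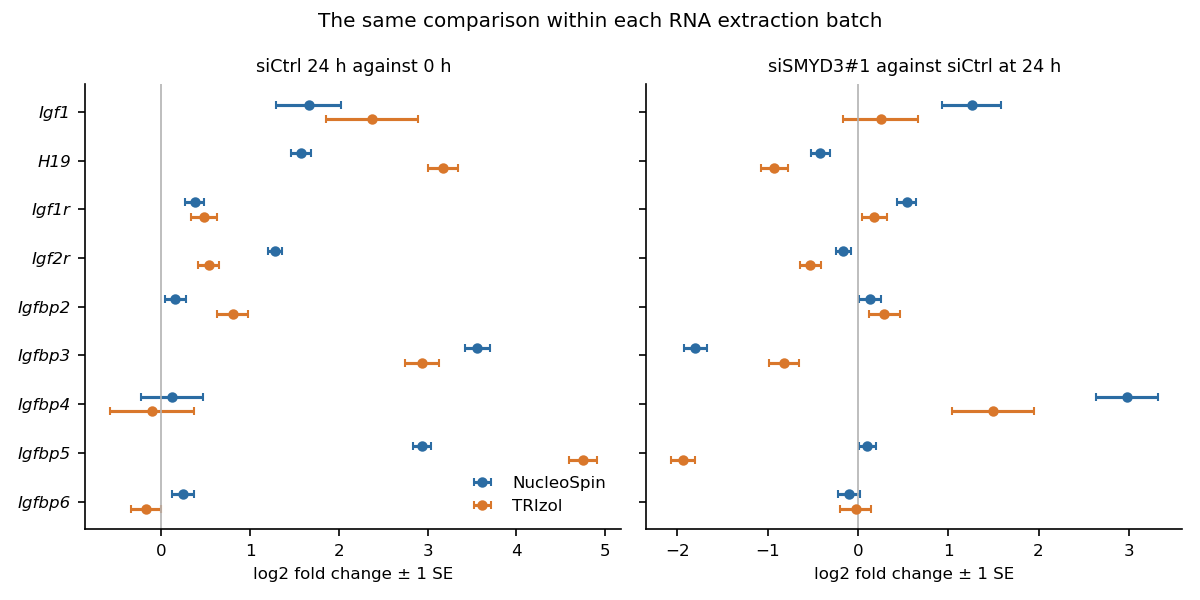
Log2 fold changes (bars of 1 SE) of the 9 tested members within the NucleoSpin (blue) and TRIzol (orange) libraries, for siCtrl cells at 24 h against 0 h and for siSMYD3#1 against siCtrl at 24 h. TRIzol bars rest on 1 library per condition and the spread of the NucleoSpin pairs. Igfbp5 lies at 0.11 and -1.93 in the right panel, and Igfbp3 is below 0 in both batches.

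In the overexpression experiment, CL5 was compared with vector cells at each time. At 0 h, 3 of the 10 members were called (H19 raised, Igfbp3 and Igfbp4 lowered), where 1.07% of 17835 genes were called, 0.465% raised and 0.606% lowered. At 24 h, 2 were called (Igfbp3 and Igfbp4 lowered), where 0.964% of genes were called and 0.589% lowered. Igf2 entered this fit only through the CL5 libraries and Igfbp3 only through the vector libraries, so no support is drawn from the calls of Igfbp3.

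Igfbp3 had 1 and 0 counts in CL5 replicates 1 and 2 at 0 h and 0 counts in both at 24 h. Vector cells held 130 and 84 counts (4.08 and 2.04 CPM) at 0 h and 151 and 186 counts (3.35 and 2.85 CPM) at 24 h. Against a floor of 3 counts per library, Igfbp3 was at least 40.2-fold lower in CL5 at 0 h and at least 32.4-fold lower at 24 h. No p-value is given for Igfbp3, because it passed the filter only through vector cells. Igfbp4 lay at 1.74 and 1.90 CPM in CL5 and 18.9 and 19.95 CPM in vector cells at 0 h, and at 3.44 and 1.89 against 29.9 and 17.5 CPM at 24 h. The groups did not overlap at either time. The log2 difference was -3.41 at 0 h (SE 0.40, adjusted p 0.0061) and -3.12 at 24 h (SE 0.39, adjusted p 0.0077). Leaving out any single vector or CL5 library at 24 h ended the calls of Igfbp3 and Igfbp4, with differences of the same sign (-3.645 to -2.691 for Igfbp4). At 0 h the call of Igfbp4 was lost without vector replicate 1 or 2 (differences of -3.454 and -3.373). That of Igfbp3 was lost without vector replicate 1 or 2 or CL5 replicate 2. With only the groups compared, 0 members were called at 0 h.

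H19 lay at 1271 and 1262 CPM in CL5 and at 119 and 170 CPM in vector cells at 0 h. The log2 difference was 3.14 (SE 0.32, adjusted p 0.0038), and without vector replicate 1 or 2 at 0 h it was 2.90 (adjusted p 0.0675) or 3.42 (adjusted p 0.0463). At 24 h H19 lay at 851 and 726 CPM in CL5 and at 492 and 328 CPM in vector cells, a difference of 0.94 (SE 0.30, adjusted p 0.18). Igf2 had 63 and 10 counts in CL5 replicates 1 and 2 and 1 and 0 counts in vector cells at 0 h. At 24 h it had 102 and 11 counts in CL5 and 7 and 0 in vector cells. CL5 replicate 1 was the higher at both times, and no fold or test is given because Igf2 passed the filter only through CL5.

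Igf1 lay at 1.24 and 1.41 CPM in CL5 and 0.31 and 0.27 CPM in vector cells at 0 h, a log2 difference of 2.18 (SE 0.38, adjusted p 0.0253). Igf2r lay at 14.96 and 6.86 CPM in CL5 against 31.9 and 42.4 CPM at 0 h, and at 21.2 and 12.3 against 53.6 and 63.2 CPM at 24 h. Its differences were -1.77 (SE 0.43, adjusted p 0.07) and -1.80 (SE 0.42, adjusted p 0.074). DESeq2 called Igf2r at both times (adjusted p 0.0021 and 0.0011) and Igf1 at 0 h (adjusted p 0.00022). Igfbp5 lay at 1161 and 453 CPM in CL5 at 0 h, and the replicates of this condition also stood apart in Myog (15.9 and 81.9 CPM). Vector cells held 309 and 270 CPM of Igfbp5, and the difference was 1.48 (SE 0.43, adjusted p 0.12), which DESeq2 called (1.53, adjusted p 0.0061). Without CL5 replicate 2 at 0 h edgeR called it as well (2.06, adjusted p 0.0026). Igf1r, Igfbp2 and Igfbp6 had adjusted p between 0.20 and 0.98 at both times. In CL5 the summed markers of differentiating muscle were 46.2 to 247 CPM at 0 h, against 1.13 to 2.70 CPM in vector cells, and 462 to 510 against 17.9 to 28.04 CPM at 24 h. The summed fibroblast markers were 7.81 to 33.2 CPM in CL5 and 13.99 to 21.2 CPM in vector cells at 0 h, and 32.4 to 37.9 against 80.1 to 117 CPM at 24 h. Their part in the differences above was not tested.

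**Figure D5:**
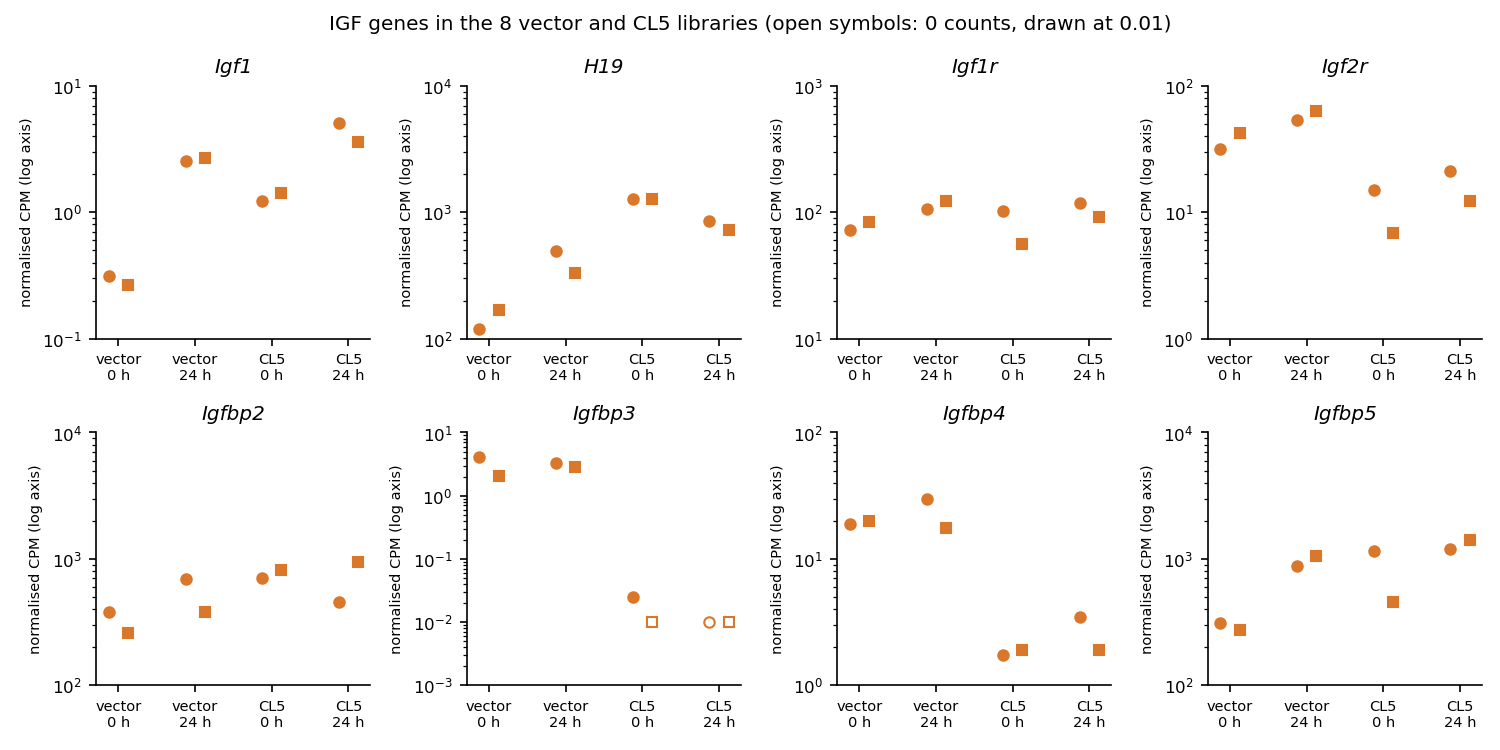
Normalised CPM (log axis, range set for each gene) of 8 members in the 8 vector and CL5 libraries, all extracted with TRIzol. Circles are replicate 1, squares replicate 2, and open symbols libraries with 0 counts, drawn at 0.01. Igfbp3 and Igfbp4 are lower in every CL5 library, and H19 at 0 h is at 1271 and 1262 CPM in CL5 against 119 and 170 in vector cells.

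Between 0 h and 24 h, edgeR called 0 of 17835 genes in vector cells and 0 in CL5, so 0% was the background for the members, of which 0 were called. At an unadjusted p under 0.05 there were 1256 and 1137 genes, among them 3 and 1 members. DESeq2 called 116 and 106 genes, among them Igf1, H19 and Igfbp5 in vector cells and Igf1 in CL5. Igf1 reached 2.55 and 2.70 CPM in vector cells (DESeq2 adjusted p 5.53e-08) and to 5.06 and 3.59 CPM in CL5 (DESeq2 adjusted p 0.0052). Igfbp5 went from 309 and 270 to 872 and 1059 CPM in vector cells. Igfbp3 showed no such rise there, at 2.04 to 4.08 CPM at 0 h and 2.85 to 3.35 CPM at 24 h. Its log2 change was 0.02 in vector cells (SE 0.51), against 3.38 in siCtrl cells. H19 went from 119 and 170 to 492 and 328 CPM in vector cells and from 1271 and 1262 to 851 and 726 CPM in CL5. The interaction of CL5 with time was -2.19 for H19 (SE 0.43, adjusted p 1.00), 0 genes were called by edgeR (0%) and 312 had an unadjusted p under 0.05, while DESeq2 called 2 genes, H19 among them (adjusted p 0.0036).

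Of 60 other genes of the pathway (further IGF binding and complex proteins, IGFBP proteases, insulin receptor adaptors, and PI3K, AKT, mTOR and FoxO genes), 16 were called raised and 2 lowered in siCtrl cells at 24 h against 0 h, beside 14.6% of all genes raised and 29.4% called in either direction. Of the 60, 55 were tested, and their median log2 change was 0.21 against 0.03 over all genes. The largest called rises were those of Stc1 (log2 change 3.14), whose product inhibits pappalysin 1, and Grb10 (1.67), which were named after their values were seen. Among called genes with at least 100 counts on average they were those of the FoxO genes Foxo6 (1.23) and Foxo4 (1.10) and of the adaptor gene Irs1 (1.23), at 78.7 ± 5.29 CPM at 0 h and 185 ± 13.0 CPM at 24 h (SD, n = 3). The falls were those of Pik3cb (-0.55), a catalytic subunit of PI3K, and Phlpp2 (-0.43), an AKT phosphatase. With siSMYD3#1 at 24 h, 5 were raised and 3 lowered, beside 2.91% and 2.94% of all genes. Raised were Igfbp7 (0.90), the serine protease gene Htra1 (0.80), the metalloproteinase gene Mmp14 (0.80), the urokinase gene Plau (0.59) and Phlpp2 (0.40). Lowered were the adaptor genes Grb10 (-1.25) and Gab1 (-0.47) and the kinase gene Akt2 (-0.36). With siSMYD3#2, 1 was raised (Phlpp2, 0.54) and 1 lowered (Foxo4, -0.38), beside 3.70% of all genes called. In CL5 against vector cells 0 were called at either time, beside 1.07% of all genes called at 0 h and 0.964% at 24 h. The protease gene Pappa, whose product cleaves IGFBP4, differed from siCtrl by 0.07 with siSMYD3#1 at 24 h (SE 0.38, adjusted p 0.94).

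Over the 18 siRNA libraries, with the extraction effect subtracted, the genes whose log2 levels ran most like Igfbp3 among 10815 genes were Tnnt3 (Pearson's r 0.98), Cpa1 (0.98) and Tnnt1 (0.98). For Igfbp5 they were Dpyd (0.99), Dcaf8 (0.99) and Psd3 (0.98). These values describe points that share the step from 0 h to 24 h and the same libraries. No likeness is given for Igf2, which did not pass the filter on low counts.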

How the data were processed

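RNA-Seq libraries of C2C12 cells were prepared by the authors with a stranded poly(A) kit, sequenced paired-end, aligned to GRCm38 with HISAT2 2.1.0 and counted per gene with featureCounts of Subread 1.6.3. The deposited values are raw counts per gene. The strand setting, the handling of reads on overlapping genes and the annotation release are not given in the sources used here. GENCODE M21 (GRCm38) gave symbols, coordinates and exon lengths, matching 54495 of 55341 genes.

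Groups came from the sample labels, and replicate numbers and passages from the study's sample table. The study calls them biological replicates, but nothing in the labels says whether they came from separate cultures, and p-values measure the spread between these samples. Checked pairwise, 0 pairs of libraries were identical. Raw counts entered edgeR 4.0.16 under R 4.3.3 (filterByExpr, TMM, robust quasi-likelihood fit, Benjamini-Hochberg adjustment over all genes tested, threshold 0.01): 18 siRNA libraries in 6 groups with extraction as covariate, following the study's model, and 8 overexpression libraries in 4 groups. A standard error is the log2 fold change divided by the square root of F. The authors' tool, DESeq2 (1.42.0 here), served as an alternative. The scripts were tested on simulated data. Depth limits genes of few counts, and floors of 3 counts per library cover counting error only.

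Same-numbered siRNA libraries deviated together (correlations of deviations from group means 0.37 to 0.85, and -0.04 to 0.18 between NucleoSpin libraries alone), so the numbers pair samples mainly by batch.

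The members and gene lists were chosen with earlier results of these data known. Named are all members, in each main comparison at most 3 rises and 3 falls among called pathway genes with at least 100 counts on average, the 3 genes most like Igfbp3 and Igfbp5, and references (Smyd3, Myog, Myh3, markers). Igf2os, Pappa, Stc1, Grb10, Plau and, with siSMYD3#1, Phlpp2 were named outside this rule, as were Tnnt3, Tnni2 and Mrpl23 among the neighbours of H19. A planned H19 to Igf2 ratio was not computed because Igf2 had 0 counts in 1 siCtrl library and a doubtful assignment.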

Additional observations from a re-analysis of the deposited data

Results flagged for a closer look

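The following effects differed between the extraction batches, given as TRIzol minus NucleoSpin on the log2 scale. They rest on 1 TRIzol library per condition and on a test chosen after the data were seen. Batch means extraction and passage together, which cannot be told apart. For the rise from 0 h to 24 h in siCtrl cells the difference was 1.604 for H19 (adjusted p 9e-05), 1.81 for Igfbp5 (adjusted p 8.36e-06) and -0.75 for Igf2r (adjusted p 0.0041), where 2.79% of all genes differed. In siSMYD3#1 cells it was -1.22 for Igf2r (adjusted p 0.00013), whose time effect was 1.36 in NucleoSpin and 0.14 in TRIzol libraries, and 2.21% of genes differed. In siSMYD3#2 cells it was 1.13 for H19 (adjusted p 0.0019), 0.94 for Igfbp5 (adjusted p 0.0026) and 1.31 for Igfbp2 (adjusted p 0.0016), where 2.12% of genes differed, and Igfbp2 fell by 0.78 in NucleoSpin libraries while its TRIzol value was 0.53 (adjusted p 0.0451). The difference of siSMYD3#1 from siCtrl at 24 h differed by -2.04 for Igfbp5 (adjusted p 1.66e-05), with 0.284% of genes differing. The difference between the siRNAs at 24 h differed by -1.81 for Igfbp5 (adjusted p 2.99e-05) and by -1.13 for Igf2r (adjusted p 0.00077), where 0.468% of genes differed.

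The siRNAs themselves differed in Igfbp4 at 24 h, by 2.67 on the log2 scale (adjusted p 0.0007), with all 3 siSMYD3#1 libraries above all 3 siSMYD3#2 libraries. In that comparison 1 of the 10 members was called, where 3.36% of all genes were. Groups held 2 or 3 libraries, too few to look for single outlying libraries.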

How the results depend on the processing

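Of the members' fitted changes under the alternatives, 2509 kept their side of the threshold, including 113 that differed in sign while called in neither fit. A further 110 gained and 77 lost the call, and 0 reversed while called. The counts below are members called out of 10, with Igf2 counted wherever it entered a fit, and the causes of the shifts were not tested. Except for DESeq2, the number of all genes called is not given beside them, also where 1 library was left out. These counts therefore show how calls depend on the fit and are no result about the members. Without the extraction covariate, 2 were called over time in siCtrl cells, 3 with siSMYD3#1, 2 with siSMYD3#2, and 1 for siSMYD3#1 against siCtrl at 24 h. Without the filter on low counts, siSMYD3#1 against siCtrl gave 2 at 0 h and 6 at 24 h, siSMYD3#2 against siCtrl 3 at 24 h, and the siRNAs against each other 1 and 5. The interactions then gave 4 and 2, vector cells over time 3, CL5 against vector 8 and 4, and the CL5 interaction 1. Igf2 was among the members counted for CL5 against vector at both times. No result is drawn from its calls, since it passed the filter of the main overexpression fit only through CL5. The same holds for the calls of Igfbp3 there, which passed that filter only through vector cells. With only the groups compared, siSMYD3#1 against siCtrl gave 2 at 0 h, siSMYD3#2 against siCtrl 3 at 24 h, the siRNAs against each other 1 and 2, vector cells over time 2, and CL5 against vector 0 at 0 h. With the NucleoSpin libraries alone, each of the 3 siRNA comparisons at 24 h gave 4 and each interaction 1. At an adjusted p under 0.05, siSMYD3#2 against siCtrl at 24 h gave 1, the siRNAs against each other 3, and the siSMYD3#1 interaction 1. DESeq2 gave 1, 3 and 1 for these, 3 and 1 over time in vector cells and CL5, 6 for CL5 against vector at 0 h, and 1 for the CL5 interaction. In the same order it called 1024, 965, 137, 116, 106, 1041 and 2 of all genes. With all 26 libraries in 1 fit, vector cells and CL5 over time gave 1 each and CL5 against vector 6 at 0 h, Igf2 among them. Without scaling factors CL5 against vector gave 0 at 24 h. Within NucleoSpin, in a fit added after seeing the data, siSMYD3#1 against siCtrl gave 1 at 0 h, siSMYD3#2 against siCtrl 3 at 24 h and the siRNAs against each other 4. Counts within TRIzol are not given, because that batch has 1 library per condition.

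Leaving out each replicate in turn gave 5 to 6 members over time in siCtrl cells, 5 to 6 with siSMYD3#1 and 3 to 5 with siSMYD3#2. For siSMYD3#1 against siCtrl at 24 h it gave 2 to 3, for siSMYD3#2 against siCtrl 0 to 1, for the siRNAs against each other 1 to 2, for the siSMYD3#1 interaction 0 to 1, and for extraction 6 to 7. For CL5 over time it gave 0 to 1, for CL5 against vector 0 to 5 at 0 h and 0 to 0 at 24 h, and for the other comparisons 0 to 0. Without siSMYD3#1 or siCtrl libraries in turn at 24 h, Igfbp3 stayed between -1.75 and -1.38 and Igfbp4 between 2.05 and 2.98, both called. A replicate block changed no member's call. The ratio of H19 to Igf2 could not be given, because Igf2 had 0 counts in siCtrl replicate 3 at 0 h. Depth limits Igf1 and Igf2, and Igfbp3 in CL5.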
